A study of Homo sapiens with 6 samples.

Results

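The genes described here are 10 genes that cells switch on when oxygen is short and that act outside glycolysis: VEGFA, ADM, CA9, CA12, NDRG1, BNIP3, BNIP3L, STC1, STC2 and NDUFA4L2. They were chosen by name, as hypoxia-induced genes of blood vessel growth, pH control, mitophagy and secreted hormones, from the 25369 genes of the RNA-Seq data. All 10 were found, and 9 of them reached the level needed for a test. CA9 did not and is described from its reads.

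Hypoxia-inducible factors (HIFs) are transcription factors whose alpha subunits are hydroxylated and destroyed through the VHL protein when oxygen is present. In low oxygen, or when VHL is lost as in most clear cell renal cell carcinoma (ccRCC), the alpha subunits persist and bind a short element in the control regions of genes such as these. VEGFA and ADM then act on vessels, CA9 and CA12 are enzymes of pH control at the cell surface, BNIP3 and BNIP3L mark mitochondria for removal, and NDUFA4L2 damps respiration.

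RNA was sequenced from Caki2, a human ccRCC cell line that lacks PBRM1 protein. PBRM1 is the bromodomain subunit that defines PBAF, a SWI/SNF chromatin remodeling complex. The control, Caki2+Vector, carried an empty tetracycline-inducible lentiviral vector, and Caki2+PBRM1 carried the same vector with full length PBRM1. Both lines were drug-selected stable lines kept in doxycycline at 2 µg/mL, the labels name no low-oxygen treatment of these cells, and each group had 3 biological replicates, named A, B and C. The labels do not say whether replicates came from separately infected cells, so p-values measure the spread between these samples only.

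Each value below is a normalized count, a gene's reads over the size factor of that library (0.834 to 1.19), with no division by gene length unless stated. Between 7312955 and 10835355 reads per sample were on genes. The 13303 genes that reached a value of 10 in no fewer than 3 samples entered limma on the log2(normalized count + 1) scale, and a gene was called upregulated or downregulated at a Benjamini-Hochberg adjusted p under 0.05. Caki2+Vector A stood apart from its group, with a chi-square per degree of freedom of 3.09 and 2.84 against the other two Vector replicates, where those had 1.34 between them and the PBRM1 pairs 1.19 to 1.22. The targeted gene matched the labels: PBRM1 had 195, 182 and 182 normalized counts in Caki2+Vector A, B and C and 2432, 2521 and 2682 in Caki2+PBRM1 (log2 fold change 3.76, SE 0.06, limma adjusted p = 3.33e-29). All 10 renal epithelial markers listed passed the filter, with a summed level of 18000 to 19100 in the Vector replicates against 17900 to 18600 in the others, and PAX8, a kidney lineage factor, averaged 2072 and 2094. Of 6 markers each, 0 endothelial, 1 immune (CD68, also a lysosomal protein of other cells) and 2 fibroblast genes passed. The endothelial sum was 2.84 to 4.72 against 5.04 to 8.0 with CDH5, TEK and ERG at 0, the immune sum 2000 to 2140 against 1910 to 1940 with CD3E at 0, and the fibroblast sum 92.3 to 103 against 90.6 to 116. Of 6 proximal tubule markers 2 passed, with sums of 1520 to 1720 and 1870 to 1950 in that order. The part of these marker differences in the results below was not tested.

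HIFs recognise ACGTG or GCGTG, so the stretch of 250 bases before the transcription start is shown for the members with an entry in the RefSeq promoter table (GRCh38.p14). These were ADM (chr11:10304823-10305072, plus strand), BNIP3 (chr10:131981924-131982173, minus strand), CA12 (chr15:63381847-63382096, minus strand), CA9 (chr9:35673678-35673927, plus strand) and STC2 (chr5:173328415-173328664, minus strand), 5 of the 10. VEGFA, NDRG1, BNIP3L, STC1 and NDUFA4L2 had no entry. Each is written 5′ to 3′ on the gene's own strand, with matches to either motif, on either strand, in capitals.
ADM: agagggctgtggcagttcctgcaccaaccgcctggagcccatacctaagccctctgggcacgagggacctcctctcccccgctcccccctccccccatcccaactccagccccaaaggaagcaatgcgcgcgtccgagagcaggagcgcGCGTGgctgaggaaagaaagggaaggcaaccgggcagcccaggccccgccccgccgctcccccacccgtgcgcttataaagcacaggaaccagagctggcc
BNIP3: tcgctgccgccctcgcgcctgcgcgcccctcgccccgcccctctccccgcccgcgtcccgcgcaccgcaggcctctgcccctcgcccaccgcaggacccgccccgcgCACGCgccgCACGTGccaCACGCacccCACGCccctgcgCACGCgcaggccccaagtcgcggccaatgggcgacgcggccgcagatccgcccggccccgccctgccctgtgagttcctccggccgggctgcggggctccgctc
STC2: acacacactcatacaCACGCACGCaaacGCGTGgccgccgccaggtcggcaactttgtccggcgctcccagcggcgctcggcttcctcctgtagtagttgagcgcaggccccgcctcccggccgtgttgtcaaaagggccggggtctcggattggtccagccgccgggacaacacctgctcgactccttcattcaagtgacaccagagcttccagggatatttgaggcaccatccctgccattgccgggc
CA9: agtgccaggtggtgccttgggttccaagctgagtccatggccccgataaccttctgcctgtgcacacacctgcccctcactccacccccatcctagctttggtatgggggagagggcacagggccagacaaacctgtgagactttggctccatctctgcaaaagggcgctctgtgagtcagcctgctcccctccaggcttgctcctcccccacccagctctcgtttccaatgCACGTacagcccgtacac
CA12: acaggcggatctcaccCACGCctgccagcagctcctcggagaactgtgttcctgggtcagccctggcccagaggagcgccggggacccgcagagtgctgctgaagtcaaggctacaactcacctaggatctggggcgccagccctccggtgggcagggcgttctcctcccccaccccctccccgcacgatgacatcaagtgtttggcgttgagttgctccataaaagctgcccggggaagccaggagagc
The BNIP3 stretch held 6 matches, 2 of ACGTG and 4 of GCGTG, between 143 and 104 bases before the start. The 2 ACGTG matches are the same palindrome read on its opposite strands. STC2 held 3 GCGTG matches (235, 231 and 222 bases before the start, the first pair overlapping), ADM 1 GCGTG (101 bases), CA12 1 GCGTG (234 bases) and CA9 1 ACGTG (18 bases). Of 35116 such stretches in the table, 18.5% held ACGTG, 32.2% GCGTG and 43.2% either, so a single match is common. At least 2 matches were found in 19.4%, and at least 6, as in BNIP3, in 0.646%. The BNIP3 stretch was 81.6% G or C, against 60.4% to 68.0% for the other stretches printed. These shares were not matched for base composition.

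Caki2+PBRM1 had more transcript of 8 of the 9 tested genes than Caki2+Vector, and 0 were called lower by limma, also at an unadjusted p under 0.05 and by edgeR, DESeq2 and limma voom. The largest differences were those of STC1, a secreted hormone, with 9.95 times the normalized count, and of NDUFA4L2, a mitochondrial protein, with 3.84 times. NDRG1, BNIP3, STC2, ADM and BNIP3L rose by 1.33 to 1.82 times and VEGFA by 1.12 times, while CA12 did not pass the test. Over all tested genes limma called 16.2% upregulated, 13.0% downregulated and 29.2% in either direction. The median log2 fold change was 0.47 over the 9 tested members and -0.004 over all tested genes. In each of the 8, the lowest Caki2+PBRM1 replicate lay above the highest Caki2+Vector replicate, which held for 22.1% of all tested genes, while 19.6% had all Caki2+PBRM1 replicates below. For each of the 8 the exact two-sided permutation test gave p = 0.1, the smallest that 3 against 3 samples allow. The 9 passed the filter in both groups, the lowest replicate value being 24.6 normalized counts for STC1. In bulk RNA a change in the share of cells that make a transcript and a change in transcript per cell cannot be told apart.

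**Figure D1:**
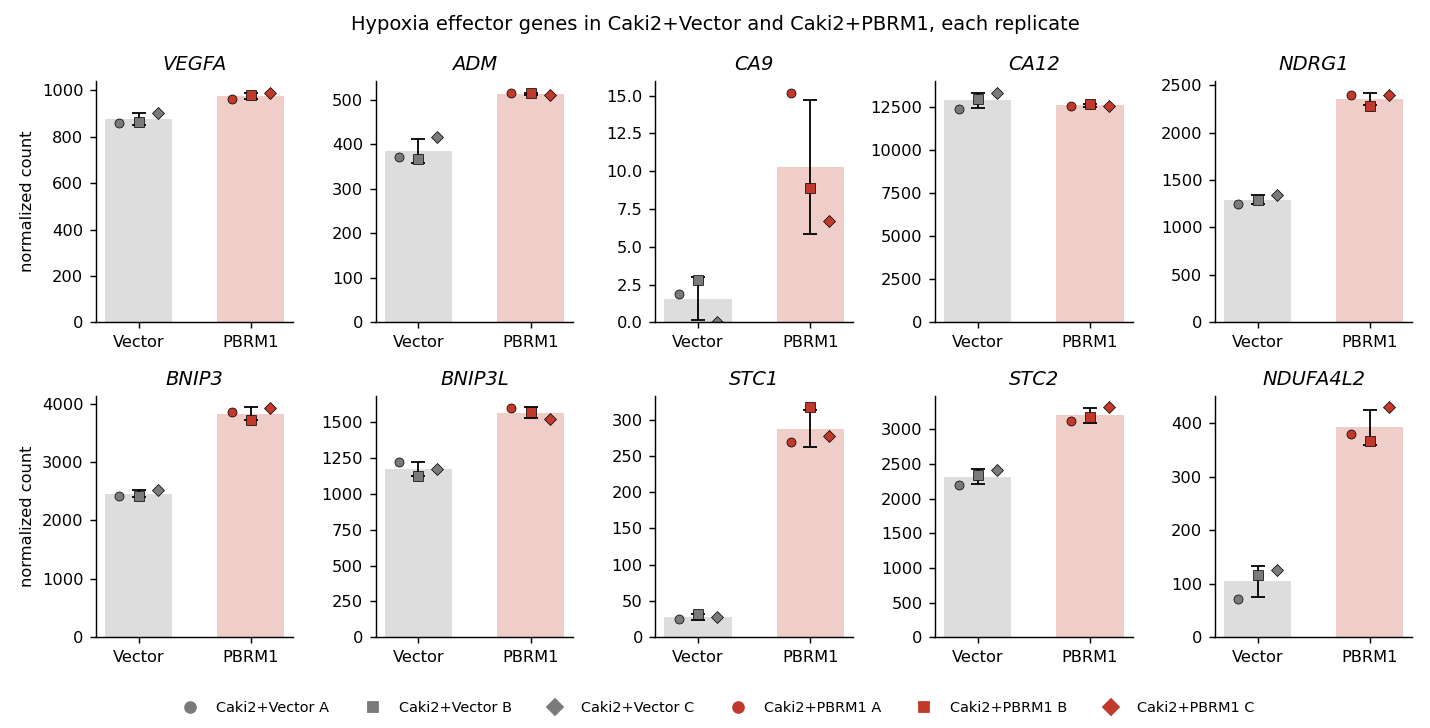
Normalized counts of the 10 genes in each replicate of Caki2+Vector (grey) and Caki2+PBRM1 (red), with bars at the group mean (n = 3) and lines of 1 SD. Each panel has its own axis from 0. The groups are apart in every panel but that of CA12.

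Among the secreted vascular factors, ADM changed more than VEGFA. VEGFA (6:43737921-43754224 of GRCh37, plus strand) encodes the growth factor that drives endothelial cells to form vessels. It had 857, 865 and 904 normalized counts in Caki2+Vector and 962, 979 and 989 in Caki2+PBRM1, that is, 875.3 ± 25 and 976.7 ± 13.6 (SD, n = 3). The groups did not overlap, but the gap between them was about as wide as the spread within Caki2+Vector. The log2 fold change was 0.16 (SE 0.05, 95% confidence interval 0.06 to 0.26, limma adjusted p = 0.0154), and VEGFA ranked 3130 among 13303 genes from the most upregulated down. Its call was lost without Caki2+PBRM1 B (0.16, limma adjusted p = 0.0624), without Caki2+PBRM1 C (0.15, 0.0749), and in DESeq2 on reads recovered from the values (0.16, DESeq2 adjusted p = 0.0583).

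ADM (11:10326620-10328944, plus strand) encodes adrenomedullin, a peptide that widens vessels. Its normalized counts were 371, 368 and 416 in Caki2+Vector, and 516, 515 and 511 in Caki2+PBRM1. The Caki2+PBRM1 replicates were almost alike, at 513.8 ± 2.35 against 385.2 ± 26.7. This is a log2 fold change of 0.42 (SE 0.07, limma adjusted p = 1.15e-05). Within each sample the log2 ratio of VEGFA to ADM was 1.21, 1.23 and 1.12 in Caki2+Vector and 0.90, 0.93 and 0.95 in Caki2+PBRM1. That ratio was lower with PBRM1 by a difference of -0.26 (SE 0.05, limma adjusted p = 0.00565 over 5 gene ratios, exact permutation p = 0.1), so the pair did not move by the same amount.

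The receptors and relatives of these ligands were counted from a list for each. The first list held 15 genes, VEGF and angiopoietin ligands and receptors together with PDGFB and ANGPTL4. Of these 6 were tested, with a median log2 fold change of 0.16. Limma called 3 upregulated (2 by DESeq2), against 16.2% of all tested genes. Downregulation was called in 0, by limma (13.0% of all tested genes), at an unadjusted p under 0.05, or by edgeR, DESeq2 or limma voom. The 3 were ANGPTL4, a secreted inhibitor of lipoprotein lipase (379.8 to 575.6 normalized counts, log2 fold change 0.62, limma adjusted p = 0.0103), VEGFC, a growth factor for lymphatic vessels (212.7 to 260.2, 0.29, 0.00839), and NRP2, its coreceptor (1432 to 1716, 0.26, 4.98e-05). VEGFB (log2 fold change 0.03, limma adjusted p = 0.797) and NRP1, the VEGFA coreceptor (0.06, 0.413), did not pass. Of the signalling receptors, FLT1 was listed at 0 in every sample, and KDR had 0.945 normalized counts in Caki2+Vector B and 0 elsewhere. MIF, a cytokine that nearly all cells make, was also listed at 0 in every sample, so a gene listed at 0 in these files need not be absent from the cells. PGF, a ligand of FLT1, was under the filter, with 3.79, 5.67 and 7.19 in Caki2+Vector and 3.25, 1.78 and 0.839 in Caki2+PBRM1.

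For adrenomedullin, 4 of 9 listed relatives were tested, of which 1 was upregulated and 1 downregulated, with a median of 0.23. Limma called 16.2% of all tested genes upregulated and 13.0% downregulated, and 4 genes are too few to set against these shares. ACKR3, an atypical receptor that takes up chemokines and adrenomedullin, rose from 391.5 to 514.3 normalized counts (0.39 on the log2 scale, limma adjusted p = 2.26e-05). ADM2, which encodes the related peptide intermedin, went the other way from ADM. It fell from 337.1 to 271.6 (-0.31, limma adjusted p = 0.00213). CALCRL, the receptor core shared by these peptides, had 48.85 and 60.10 (0.30, limma adjusted p = 0.16). Its partner subunits RAMP1, RAMP2 and RAMP3 were listed at 0 in every sample, RAMP2 and RAMP3 being named after their values were seen.

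The pair of membrane carbonic anhydrases stood at opposite ends of the expression range. Both have their active site outside the cell, where they turn carbon dioxide into bicarbonate and acid. CA9 (9:35673925-35681156, plus strand) had 2, 3 and 0 reads in Caki2+Vector and 14, 10 and 8 in Caki2+PBRM1, or 1.89, 2.83 and 0 against 15.2, 8.89 and 6.71 normalized counts. The groups did not overlap, yet only 1 of the 6 samples reached 10. No Caki2+Vector value was above the level of 3 reads (2.83 to 3.60 normalized counts), which is what a count of 0 allows. Pooled over replicates, 32 reads against 5 give a ratio of 5.61 per read on genes, with an exact 95% interval of 2.17 to 18.4 that covers counting error only. Fits without the filter gave log2 fold changes of 2.27 in limma (adjusted p = 0.000186), 2.46 in edgeR (0.000512) and 2.60 in DESeq2 (0.026). The size of the CA9 difference is known only within this wide range.

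CA12 (15:63613577-63674045, minus strand) was the most abundant of the 10 by normalized count. Its normalized counts were 12383, 12960 and 13292 in Caki2+Vector and 12533, 12677 and 12564 in Caki2+PBRM1. The Caki2+PBRM1 replicates lay inside the Caki2+Vector range, with means of 12880 ± 460 and 12590 ± 75.3. The log2 fold change was -0.03 (SE 0.03, 95% confidence interval -0.10 to 0.03, limma adjusted p = 0.485, exact permutation p = 0.4). This interval leaves room for no rise above 0.03 on the log2 scale. The value passed the threshold downward without Caki2+Vector A, its lowest Vector replicate (-0.06, limma adjusted p = 0.0385), and after quantile normalization (-0.15, limma adjusted p = 0.000789). The log2 ratio of CA9 to CA12 was higher in every Caki2+PBRM1 replicate, by 2.30 (SE 0.62, limma adjusted p = 0.0137 over 5 gene ratios, exact permutation p = 0.1), a value that rests on the 0 to 3 reads of CA9 in Caki2+Vector. Its size moved with the pseudocount, from 2.72 at 0.5 to 1.38 at 4.

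Of 13 other carbonic anhydrases 6 were tested, with a median log2 fold change of -0.15. CA2, the abundant cytosolic enzyme, fell from 1172 to 882.2 normalized counts (-0.41, limma adjusted p = 1.07e-07). CA5B, a mitochondrial enzyme, rose from 40.02 to 86.93 (1.12, limma adjusted p = 2.96e-06). The other 4 did not pass, among them CA13 (0.49, limma adjusted p = 0.307). Of 14 genes of acid, lactate and bicarbonate transport, all tested, 6 were upregulated and 2 downregulated, with a median of 0.21. Over all tested genes 16.2% were upregulated and 13.0% downregulated. Those that rose most were SLC4A3, an anion exchanger (0.81, limma adjusted p = 0.000864), SLC16A3, the lactate exporter MCT4 (3296 to 4375 normalized counts, 0.42, 0.005), and SLC4A7, a sodium bicarbonate importer (0.38, 0.000155). Those that fell were SLC4A8, another bicarbonate importer (-0.81, limma adjusted p = 0.000157), and SLC16A7, the monocarboxylate transporter MCT2 (-0.32, 0.000833).

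**Figure D2:**
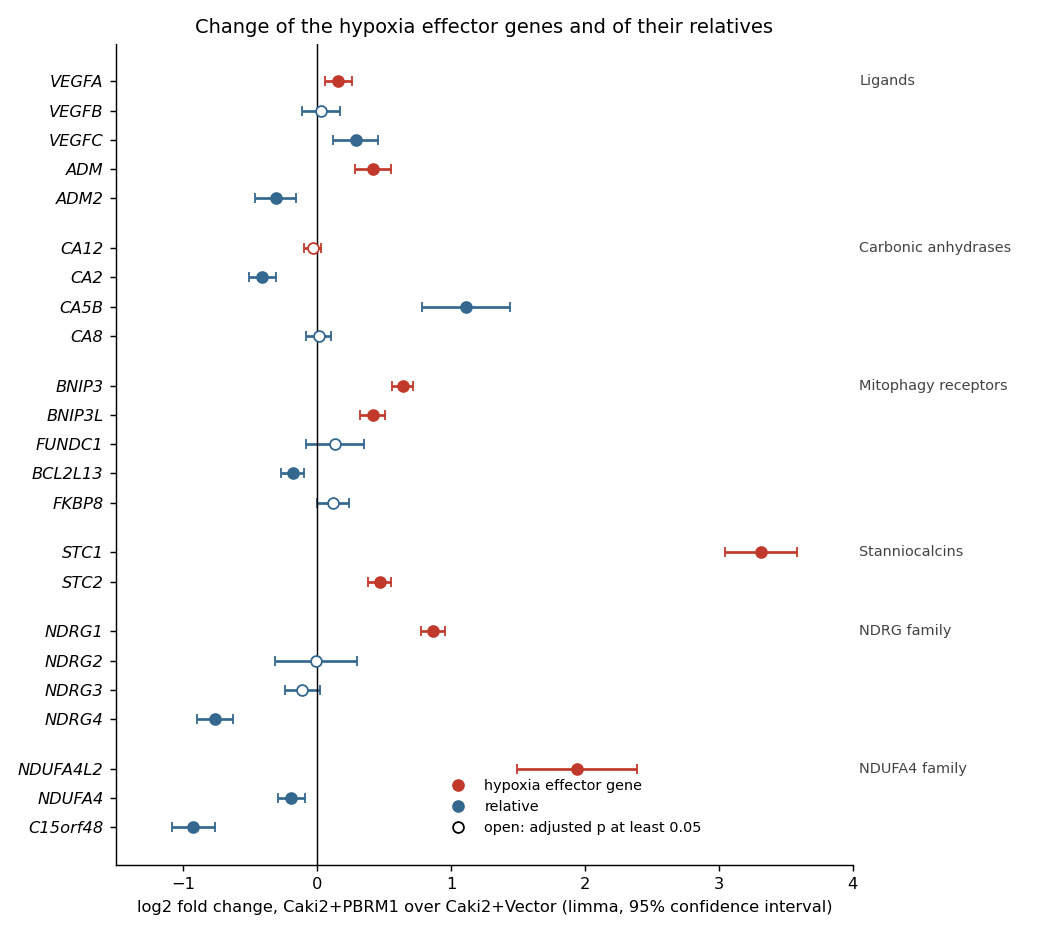
Log2 fold changes of the tested hypoxia effector genes (red) and of relatives of each (blue), with 95% confidence intervals from limma. Filled points passed an adjusted p under 0.05. NDUFA4L2 and NDRG1 lie to the right of 0 while NDUFA4, C15orf48 and NDRG4 lie to the left.

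Both mitophagy receptors rose, BNIP3 more than BNIP3L. They sit in the outer mitochondrial membrane and bind LC3 proteins of the autophagosome, which then engulfs the mitochondrion. BNIP3 (10:133781188-133795471, minus strand), whose start has the row of motif matches printed above, had 2422, 2421 and 2522 normalized counts in Caki2+Vector. The Caki2+PBRM1 replicates had 3862, 3713 and 3917, so the means were 2455 ± 57.9 and 3830 ± 106. The log2 fold change was 0.64 (SE 0.04, limma adjusted p = 6.73e-14). The distance between the groups was many times the spread in either.

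BNIP3L (8:26240570-26363152, plus strand), also called NIX, is the paralog that clears mitochondria from maturing red cells. It had 1226, 1125 and 1175 normalized counts in Caki2+Vector and 1601, 1571 and 1524 in Caki2+PBRM1, or 1175 ± 50.4 and 1565 ± 38.7. Its log2 fold change was 0.41 (SE 0.05, limma adjusted p = 3.57e-08). The log2 ratio of BNIP3 to BNIP3L was 0.98, 1.11 and 1.10 in Caki2+Vector and 1.27, 1.24 and 1.36 in Caki2+PBRM1. It rose by 0.23 (SE 0.06, limma adjusted p = 0.0137 over 5 gene ratios, exact permutation p = 0.1).

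Of 22 other genes of mitophagy and autophagy 19 were tested, 3 were upregulated and 3 downregulated (2 and 2 by DESeq2), and the median log2 fold change was 0.04. These counts are near the shares over all tested genes, 16.2% up and 13.0% down. ULK1, the kinase that starts autophagy, rose from 348.5 to 486.7 normalized counts (0.49, limma adjusted p = 1.91e-05). MAP1LC3B, the LC3 protein itself (0.23, limma adjusted p = 0.00896), and SQSTM1, the cargo adapter p62 (15550 to 18140, 0.22, 1.52e-05), were the other upregulated genes. GABARAPL1, an LC3 relative (-0.43, limma adjusted p = 0.000113), BCL2L13, another mitophagy receptor (-0.18, 0.0018), and PGAM5, a mitochondrial phosphatase (-0.18, 0.0231), were downregulated. FUNDC1, the other receptor linked to hypoxia (0.13, limma adjusted p = 0.377), and PINK1, the kinase of the depolarisation pathway (0.31, 0.0604), did not pass.

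The stanniocalcins are secreted glycoproteins that bind and inhibit PAPPA, a protease that cuts IGFBP4 and so frees insulin-like growth factors. STC1 (8:23699442-23712319, minus strand) had 24.6, 32.1 and 27.6 normalized counts in Caki2+Vector and 269, 317 and 277 in Caki2+PBRM1. Low in every Vector replicate, it went from 28.10 ± 3.78 to 287.6 ± 26.0. The log2 fold change was 3.31 (SE 0.13, 95% confidence interval 3.05 to 3.58, limma adjusted p = 3.01e-18), which ranked 8 among the 13303 genes. Upregulation with a log2 fold change over 3 was found in 0.0677% of tested genes.

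STC2 (5:172741726-172755450, minus strand) was far more abundant and changed far less. It had 2202, 2338 and 2410 normalized counts in Caki2+Vector and 3114, 3172 and 3317 in Caki2+PBRM1, or 2317 ± 106 and 3201 ± 104. Its log2 fold change was 0.47 (SE 0.04, limma adjusted p = 3.53e-10). The groups were well apart, and log2 fold changes over 0.4 with a call were found in 7.04% of tested genes. The log2 ratio of STC1 to STC2 was -6.43, -6.14 and -6.40 in Caki2+Vector and -3.53, -3.32 and -3.58 in Caki2+PBRM1. This rise of 2.85 (SE 0.11, limma adjusted p = 1.01e-05 over 5 gene ratios, exact permutation p = 0.1) brought STC1 closer to STC2 without reaching its level.

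Of 7 other genes of this axis 3 were tested, and all 3 were upregulated (2 by DESeq2), against 16.2% of all tested genes. Their median log2 fold change was 0.38. PAPPA rose from 84.62 to 111 normalized counts (0.38, limma adjusted p = 0.0205). IGFBP4, its substrate, rose from 1738 to 2295 (0.40, limma adjusted p = 9.34e-09). IGF1R, the receptor of the freed growth factors, rose from 2163 to 2428 (0.17, limma adjusted p = 0.0022).

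**Figure D3:**
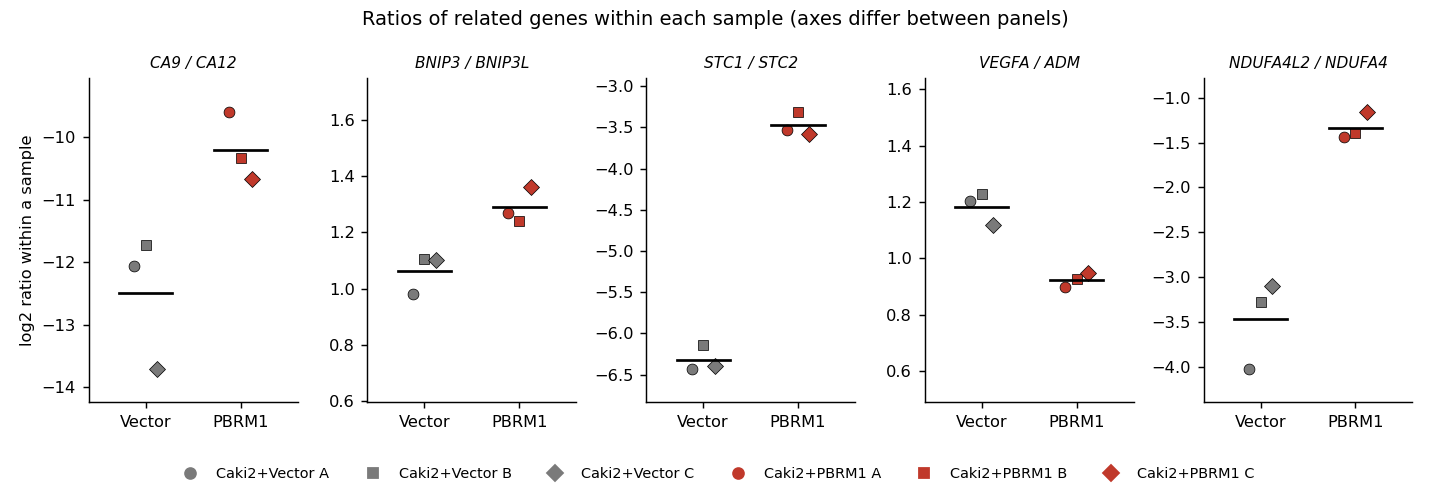
Log2 ratio of related genes within each sample, from normalized counts + 1, with lines at the group means (n = 3). The vertical axes differ between panels. The ratio of VEGFA to ADM is lower in all 3 Caki2+PBRM1 replicates, and the other 4 ratios are higher.

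NDRG1 (8:134249418-134314265, minus strand) encodes a cytoplasmic protein induced by hypoxia and differentiation and described as a suppressor of metastasis. Its normalized counts were 1249, 1287 and 1342 in Caki2+Vector and 2394, 2281 and 2394 in Caki2+PBRM1. With 1293 ± 47.1 and 2356 ± 65.2 the groups were far apart. The log2 fold change of 0.87 (SE 0.04, 95% confidence interval 0.78 to 0.96, limma adjusted p = 1.03e-15) was exceeded among the tested members by those of STC1 and NDUFA4L2 only. Of its 3 relatives 0 were upregulated by limma, by the other tools, or at an unadjusted p under 0.05. Limma called 16.2% of all tested genes upregulated and 13.0% downregulated, and 3 genes are too few to set against these shares. NDRG4 fell from 657.8 to 387.1 normalized counts (-0.76, limma adjusted p = 2.44e-10), while NDRG2 (-0.01, limma adjusted p = 0.984) and NDRG3 (-0.11, 0.204) did not pass.

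NDUFA4L2 (12:57628686-57634498, minus strand) encodes the hypoxia-induced paralog of NDUFA4, a subunit of respiratory complex IV. It had 71.0, 117 and 125 normalized counts in Caki2+Vector and 381, 367 and 430 in Caki2+PBRM1, or 104.3 ± 29.1 and 392.7 ± 32.8. All Caki2+PBRM1 replicates were above all Caki2+Vector replicates, and Caki2+Vector A was the lowest. The log2 fold change was 1.94 (SE 0.20, 95% confidence interval 1.49 to 2.39, limma adjusted p = 9.94e-05), which ranked 47, and 1.69 without Caki2+Vector A. Calls with a log2 fold change over 1.9 made up 0.383% of tested genes, and those over 1 made up 1.85%.

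NDUFA4 itself moved the other way. It had 1166, 1147 and 1076 normalized counts in Caki2+Vector and 1039, 965 and 964 in Caki2+PBRM1 (log2 fold change -0.19, SE 0.05, limma adjusted p = 0.00414). The log2 ratio of NDUFA4L2 to NDUFA4 was -4.02, -3.28 and -3.10 in Caki2+Vector and -1.44, -1.39 and -1.16 in Caki2+PBRM1, a rise of 2.13 (SE 0.27, limma adjusted p = 0.00124 over 5 gene ratios, exact permutation p = 0.1). C15orf48, whose small protein can also take the place of NDUFA4, fell from 398.5 to 209.7 normalized counts (-0.92, limma adjusted p = 1.59e-10). Of 16 genes of complex IV and relatives of NDUFA4, 14 were tested, 0 were upregulated by limma, by the other tools, or at an unadjusted p under 0.05. Downregulation was called by limma in 4, with a list median of -0.08, against 13.0% downregulated and 16.2% upregulated over all tested genes. It was called by edgeR and limma voom in 5 and by DESeq2 in 3. The other two downregulated genes were the complex IV subunits COX7C (-0.26, limma adjusted p = 0.000461) and COX6C (-0.18, 0.0196), the latter named after its value was seen. COX4I1 had a log2 fold change of 0.01 (limma adjusted p = 0.869), and COX4I2, the subunit isoform of low oxygen, was listed at 0 in every sample.

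Levels of different genes were compared per kb of the MANE Select transcript (GENCODE 44 on GRCh37). In Caki2+Vector the normalized count per kb was highest for CA12 (2110 ± 75.5) and BNIP3 (1590 ± 37.5). STC2 (545 ± 24.9), NDRG1 (427 ± 15.6), BNIP3L (340 ± 14.6), ADM (258 ± 17.9), VEGFA (243 ± 6.92) and NDUFA4L2 (111 ± 30.8) followed. STC1 (7.26 ± 0.98) and CA9 (1.02 ± 0.93) were far below. Only ADM and VEGFA overlapped among neighbours in this order.

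In Caki2+PBRM1, BNIP3 (2480 ± 68.5 normalized counts per kb) came before CA12 (2060 ± 12.4). NDRG1 (779 ± 21.6) and STC2 (752 ± 24.5) overlapped, as did BNIP3L (453 ± 11.2) and NDUFA4L2 (416 ± 34.8). ADM (344 ± 1.57), VEGFA (271 ± 3.78), STC1 (74.4 ± 6.73) and CA9 (6.63 ± 2.84) were lower and apart. On this length NDUFA4L2 stood above ADM and VEGFA and below NDUFA4, which had 486 ± 21.0 per kb. Among 11535 tested genes with a length (86.7% of those tested), CA12 and BNIP3 stood at the 98.4 and 98.3 percentile of the mean over all samples and STC1 at the 30.5. The order depended on the length used. With the length of all annotated exons together, chosen after seeing the data, the Caki2+PBRM1 means per kb were 1800 for CA12 and 946 for BNIP3, which turns their order. STC2 then had 632, BNIP3L 377, ADM 221, NDRG1 196 and NDUFA4L2 140, so that NDRG1 lay far below STC2, and NDUFA4L2 lay below ADM and at a lower share of NDUFA4 (286). STC1 (69.6) and VEGFA (67.7) were then close to each other.

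**Figure D4:**
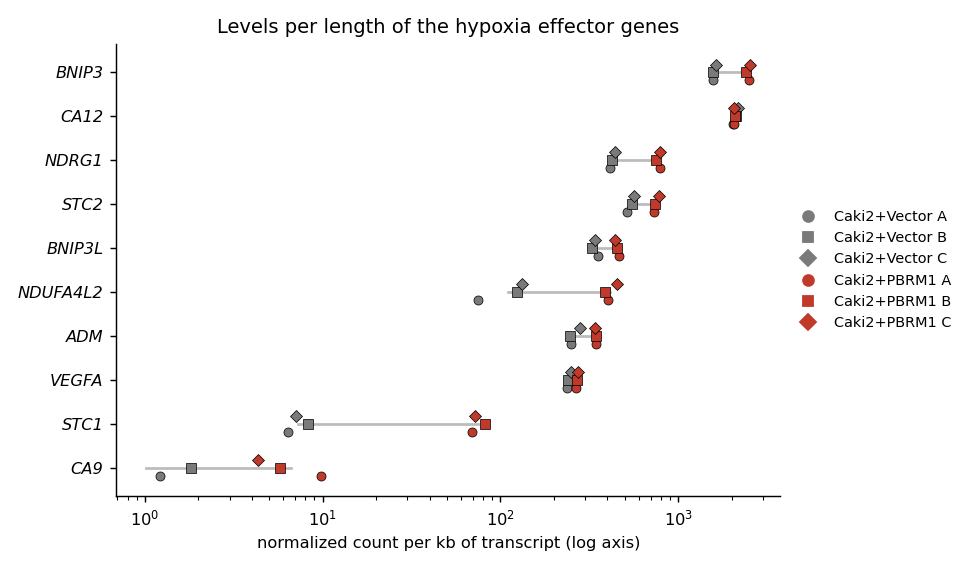
Normalized count per kb of transcript, on a log axis, of each gene in each replicate of Caki2+Vector (grey) and Caki2+PBRM1 (red), in the order of the Caki2+PBRM1 means, with a line between the group means. CA9 in Caki2+Vector C is 0 and is not drawn. STC1 and NDUFA4L2 have the longest lines of the genes with over 10 normalized counts in every sample.

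The genes most like the pair with the largest changes were found by the distance between log2 values, centred on the Caki2+Vector mean, over the 6 samples. Nearest to STC1 was GFRA1, a GDNF coreceptor (distance 0.74; 21.31 to 173.4 normalized counts, log2 fold change 3.02). PBRM1 itself (0.87) and PTPRD, a receptor phosphatase (1.12; 47.86 to 316.2, log2 fold change 2.74), came next. Nearest to NDUFA4L2 were SMOC1 (0.41; 6.264 to 25.02), CLMP (0.42; 7.839 to 31.56) and SLITRK4 (0.54; 31.80 to 109.3), a matrix protein and a pair of membrane proteins. With 6 samples in 2 groups this distance mostly reflects the size of the change.

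A list of 51 other hypoxia-induced genes outside glycolysis showed the same direction as the 8 genes. Of 47 tested, 37 were upregulated (31 by DESeq2) and 1 was downregulated, against 16.2% and 13.0% of all tested genes. Leaving out single replicates gave 31 to 38 called genes of this list, both directions counted together. The median change was 0.39 on the log2 scale, and the extremes were -0.22 and 1.66. The upper extreme was CXCR4, with 3.79, 9.45 and 4.79 normalized counts in Caki2+Vector and 16.2, 21.3 and 22.7 in Caki2+PBRM1. It passed the filter through its Caki2+PBRM1 values only. The list was drawn up with results of these data known and is not independent evidence of its direction. With a mean of at least 50 normalized counts, those that rose most were TMEM45A, a membrane protein (86.88 to 257.1, 1.56, limma adjusted p = 1.54e-12), RORA, a nuclear receptor (67.60 to 177.8, 1.38, 1.22e-10), and LOX, the lysyl oxidase that crosslinks collagen (687.2 to 1493, 1.12, 2.24e-17). HMOX1, heme oxygenase, was the only downregulated gene of the list, at 1923 and 1655 (-0.22, limma adjusted p = 0.00583), and its groups overlapped. EGLN3, the HIF hydroxylase PHD3, rose from 513.5 to 757.6 (0.56, limma adjusted p = 5.92e-09).

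Of 10 housekeeping genes (general qRT-PCR references), 0 were upregulated by limma, by the other tools, or at an unadjusted p under 0.05. Limma called 4 downregulated, with a list median of -0.05, against 13.0% downregulated and 16.2% upregulated over all tested genes. The 4 were GUSB (-0.27), PPIA (-0.18), HPRT1 (-0.16) and, named after its value was seen, RPLP0 (-0.12). Without Caki2+PBRM1 B 1 gene of this list was called, and without Caki2+PBRM1 C 2.

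**Figure D5:**
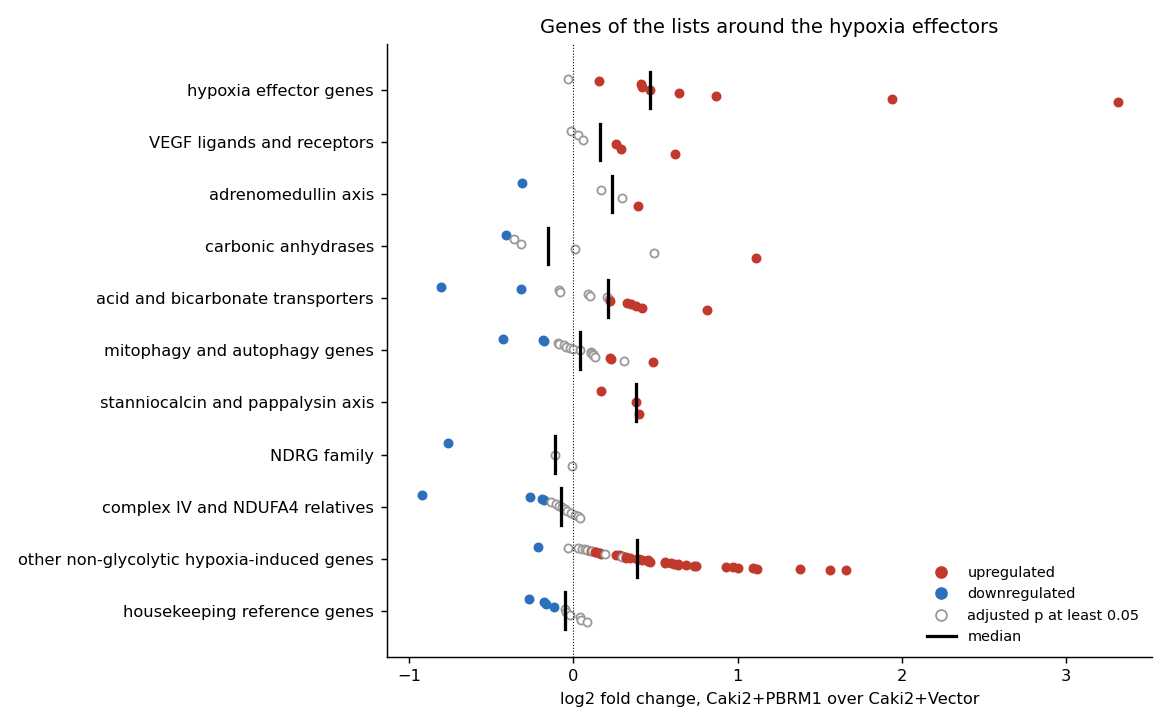
Log2 fold changes of the tested genes of each list, one point per gene, red for upregulated, blue for downregulated and open for an adjusted p of at least 0.05, with a black line at the list's median. The medians of the hypoxia effector genes (0.47) and of the other hypoxia-induced genes (0.39) lie to the right of those of the mitophagy, complex IV and housekeeping lists. The stanniocalcin and pappalysin axis, with 3 tested genes, has a median of 0.38, close to that of the other hypoxia-induced genes. The adrenomedullin (0.23), acid transport (0.21) and VEGF (0.16) lists lie in between.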

How the data were processed

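The data are paired-end poly(A) RNA-Seq libraries of Caki2+Vector and Caki2+PBRM1, 3 replicates each, grouped by the sample labels. Per the paper's methods the authors trimmed adapters, removed poor and rRNA reads, aligned to hg19 with STAR, counted reads on 25369 UCSC genes with htseq-count and normalized with DESeq2 (versions not given in the sources used here). The deposited values are a signal of reads per gene divided by a size factor. All values (100%) were whole multiples of 1 step per sample within 0.01, so reads were recovered for the depth and for count models.

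The log2(value + 1) values were fitted with limma 3.58.1 (trend, robust) in R 4.3.3 without a replicate term. Genes at or above 10 in at least 3 samples were tested, and p-values were adjusted over all 13303. The log2 fold changes had a median SE of 0.083 at this sequencing depth. Single values had exact permutation tests in Python 3.11.15 with scipy 1.17.1. Alternatives were edgeR 4.0.16, DESeq2 1.42.0 and limma voom on recovered reads, pseudocounts of 0.5 and 4, other filters, TMM, quantile normalization, the replicate block and leaving out each replicate. The fits were tested on simulated data. Coordinates come from GENCODE on GRCh37. Genes named are the members, PBRM1, their receptors, paralogs and partners, EGLN3, PINK1, FUNDC1, COX4I1 and COX4I2 (listed by name in the rule), up to 3 genes per direction and list with the largest called change whose higher group averaged 50 or more, and the 3 genes nearest to each of the 2 members that changed most. The members and lists were chosen with earlier results of these data known. Strand use in counting is not given in the sources used here, so reads of overlapping antisense genes cannot be told apart.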

Additional observations from a re-analysis of the deposited data

How the results depend on the processing

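The 8 upregulated genes stayed upregulated by edgeR, limma voom, both pseudocounts, both filters, TMM, quantile normalization and the replicate block, and by DESeq2 except for VEGFA. Left-out replicates gave 7 to 8 upregulated and 0 to 1 downregulated members, CA12 being the latter without Caki2+Vector A. Quantile normalization also gave 1 downregulated member, CA12 (-0.15). The members' median log2 fold change was 0.55 without the filter, which adds CA9, and 0.43 after quantile normalization. Over all genes edgeR called 2185 up and 1819 down and limma voom 2183 and 1810, against 2152 and 1734 in limma, while DESeq2 called 1496 and 1057; the cause was not tested. Left-out replicates gave 1 to 5 called housekeeping genes. On the length of all annotated exons, chosen after seeing the data, the log2 ratio of BNIP3 to CA12 per kb in Caki2+PBRM1 was -0.93 in place of 0.27. Of the other values for single genes, 157 kept their direction and side of the threshold.

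No shared effect of a replicate letter was seen, since deviations from the group mean correlated at 0.01, -0.01 and 0.01 for A, B and C. These correlations cannot show whether samples of the same letter were prepared together. The replicate block gave 2249 upregulated and 1858 downregulated genes, and 8 upregulated and 0 downregulated members (VEGFA 0.16, limma adjusted p = 0.0137), and changed no call of a member.

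Depth limits CA9, with 0 to 3 reads per Caki2+Vector replicate.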

Other observations

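The tested genes nearest to each member on the chromosome, 1 on each side, were examined by a rule chosen after the data were seen. The rule left out genes whose annotated span overlaps that of a member, so a neighbour need not be the adjacent gene. Of these 20 neighbours 2 were upregulated, 2 downregulated and 16 not called, with a median log2 fold change of 0.008. Over all tested genes 16.2% were upregulated and 13.0% downregulated, so the neighbours were called no more often than other genes. NXPH4, a neuronal secreted protein 8.45 kb from NDUFA4L2, rose with it from 14.2, 21.7 and 21.6 in Caki2+Vector A, B and C to 44.4, 39.1 and 27.7 normalized counts in Caki2+PBRM1 (log2 fold change 0.92, limma adjusted p = 0.0035), while R3HDM2 on the other side had 496.9 ± 12.4 and 548.1 ± 4.91 (SD, n = 3; 0.14, 0.0713). AMPD3, an AMP deaminase whose annotated span begins 0.915 kb from that of ADM, rose from 276.7 to 328.7 (0.25, limma adjusted p = 0.011). ST3GAL1, a sialyltransferase beside NDRG1, fell from 407.9 to 284.6 (-0.52, limma adjusted p = 3.48e-06), and JAKMIP3 beside BNIP3 fell from 284.8 to 240.0 (-0.25, 0.0221), both against the direction of the member.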
